A study of Mus musculus with 6 samples.

Results

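The miR-148 and miR-152 family was examined as 4 mature miRNAs, mmu-miR-148a-3p, mmu-miR-148a-5p, mmu-miR-148b-3p and mmu-miR-152-3p (the mmu prefix, for mouse, is dropped from here on), taken by name from the 1104 rows and 1034 distinct mature miRNAs of the deposited table. Each of the 4 had a single row. They were measured in nephron progenitors, the cells of the outer kidney from which nephrons form, of CD1 mice, either in the embryo at stage E14.5 or at birth (P0), with 3 libraries per stage and no treatment or engineered allele given in the labels. Each library came from the pooled kidneys of a single litter, whose cortical cells were released by a short collagenase and pancreatin digestion and selected on magnetic beads with an antibody against the integrin Itga8. The selection enriches progenitors and does not purify them, and only miRNAs were measured, so the label was checked through markers of other cells and not through progenitor mRNAs. Values of a stage are listed in the order of replicates 1, 2 and 3 throughout.

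A miRNA is cut from a hairpin transcript as a pair of arms, 5p and 3p. The arm that stays in the Argonaute complex guides it to messenger RNAs, mainly through its seed (bases 2 to 8), and the other arm is mostly degraded. In this family the 3p arm is the usual guide. Its members are known for repressing DNA methyltransferases, the enzymes that set and copy methyl marks on DNA, and miR-148a is a highly abundant miRNA of several epithelia. No mRNA was measured here, so these targets are background.

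The mature sequences below, from RefSeq (build GRCm38.p6), show which arms share a seed, printed in capitals, and the first 3 are the guide arms that the results turn on.
miR-148a-3p: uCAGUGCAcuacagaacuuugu
miR-148b-3p: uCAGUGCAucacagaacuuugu
miR-152-3p: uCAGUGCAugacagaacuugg
miR-148a-5p: aAAGUUCUgagacacuccgacu
miR-148b-5p: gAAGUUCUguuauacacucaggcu
miR-152-5p: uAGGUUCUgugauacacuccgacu
All 3 guide arms had the seed CAGUGCA, and no other of the 1679 mature mouse names in the RefSeq table had it. Counted from the 5′ end of the first of each pair, miR-148a-3p and miR-148b-3p differed by C9U and U10C, miR-148a-3p and miR-152-3p by C9U, U10G and U20G, and miR-148b-3p and miR-152-3p by C10G and U20G. The differences between guide arms thus lay outside the seed. miR-148a-5p and miR-148b-5p shared the seed AAGUUCU, and miR-152-5p had AGGUUCU. miR-148b-5p and miR-152-5p are not members and are described only as the other arms of their hairpins.

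The 3 hairpins are printed with both arms in capitals, the 5p arm first, because the balance of the arms is compared further on.
Mir148a: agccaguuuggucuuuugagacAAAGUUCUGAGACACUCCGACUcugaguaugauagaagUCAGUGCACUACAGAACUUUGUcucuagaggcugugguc
Mir148b: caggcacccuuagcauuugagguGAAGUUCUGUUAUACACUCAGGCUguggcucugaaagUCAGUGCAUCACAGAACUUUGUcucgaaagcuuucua
Mir152: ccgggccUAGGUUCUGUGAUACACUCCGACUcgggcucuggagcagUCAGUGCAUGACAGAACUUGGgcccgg
The table's positions of all 6 arms equalled those of RefSeq. In GRCm38, miR-148a-3p lies at chr6:51269829-51269850 and miR-148a-5p at chr6:51269867-51269888, both on the minus strand and between genes. The nearest protein-coding gene in GENCODE, Nfe2l3, was 162820 bases from miR-148a-3p. miR-148b-3p lies at chr15:103285185-103285206 on the plus strand, in an intron of Copz1 on the same strand. miR-152-3p lies at chr11:96850439-96850459 on the plus strand, in an intron of Copz2 on the same strand. Copz1 and Copz2 encode the paralogous zeta subunits of the coatomer coat of Golgi vesicles.

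Whole reads recovered from the deposited values numbered 2649506 to 34934526 per library, and the shallowest libraries were E14.5 replicates 1 and 3. P0 replicate 1 stood apart from the other P0 libraries. Across miRNAs, its log2(TPM + 1) values had a mean Pearson r of 0.948 with the E14.5 libraries and 0.908 with P0 replicates 2 and 3. The members' results are therefore given with and without it. It was singled out from these same values, and fits without it rest on P0 replicates 2 and 3 alone for that stage. Leaving out the P0 library most like E14.5 favours a stage difference, so calls in those fits are descriptive and not independent evidence. Whether its label or its preparation differs from the other P0 libraries was not tested, and every P0 mean includes it unless stated. Marker miRNAs of other cells had mostly lower TPM at P0, as had most miRNAs, whose median log2 fold change was −1.20. Endothelial markers (2 of 2 lower) summed to between 26608 and 44921 TPM at E14.5 and between 5634 and 8158 TPM at P0. Stromal markers (6 of 6 lower) summed to between 84962 and 101473 TPM at E14.5 and between 33590 and 46336 TPM at P0. Markers of ureteric and tubule epithelium, the miR-200 family (5 of 5 lower), summed to between 4122 and 23183 TPM at E14.5 and between 500.2 and 1542 TPM at P0. Proximal tubule markers (3 of 3 lower) ran from 765 to 1525 TPM at E14.5 and, overlapping, from 264 to 1008 TPM at P0, leukocyte markers (3 of 4 lower) from 632 to 1202 and from 454 to 629 TPM, and erythroid markers (3 of 4 lower) from 242 to 417 and from 127 to 189 TPM. None of these markers was listed at 0 in any library. In TPM, limma called lower 2 of 2 endothelial, 5 of 5 miR-200, 3 of 6 stromal, 1 of 4 erythroid, 1 of 3 proximal tubule and 0 of 4 leukocyte markers. It called 32.8% of all miRNAs tested lower in the same fit. After median-of-ratios scaling (which divides each library by its typical miRNA) it called lower 1 endothelial and 3 miR-200 markers, none of the others lower, and 1 leukocyte marker higher. Of all miRNAs tested, 5.22% were called lower and 5.67% higher on that scale. The median log2 fold change was then −1.81 for endothelial, −2.46 for miR-200 and −0.03 for stromal markers, beside −0.17 for all miRNAs, so the lower stromal sum in TPM was close to that of the table as a whole. Their part in the family's values was not tested, and in bulk samples fewer cells of a type and less RNA per cell cannot be told apart.

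miR-148a-3p, the most abundant member in every library, was 2.12 times as high at P0 as at E14.5 on average, but only through 2 of the 3 P0 libraries. It had 23451, 16551 and 20671 TPM (transcripts counted per length and scaled to the library total) at E14.5. At P0 it had 13265 TPM in replicate 1, below every E14.5 library, and 53996 and 61288 TPM in replicates 2 and 3, above all of them. Among 1034 miRNAs it ranked 8, 16 and 10 at E14.5 and 18, 5 and 4 at P0. The stages therefore overlapped, and limma gave a log2 fold change on the log2(TPM + 1) scale of 0.82 (SE 0.55, n = 3 per stage, limma adjusted p = 0.250). Of the 670 miRNAs averaging 1 TPM or more, 229 were called at an adjusted p below 0.05 (34.2%), with 1.34% higher and 32.8% lower at P0, and the median log2 fold change of all 670 was −1.20. miR-148a-3p lay 2.01 above the median (1.46 without the filter), and 93.4% of tested miRNAs had a lower log2 fold change. After median-of-ratios scaling, with a median of −0.17 over all miRNAs, it stood at 2.10 (log2, SE 0.70, limma adjusted p = 0.0750), while 10.9% of miRNAs were called, 5.67% higher and 5.22% lower. Without P0 replicate 1 the value was 1.52 (SE 0.25, limma adjusted p = 0.000385) in TPM and 2.98 (SE 0.26, limma adjusted p = 0.000123) after scaling. In those 2 fits 61.0% and 48.2% of miRNAs were called, with 7.98% and 21.6% higher and 53.0% and 26.6% lower at P0, so a larger share of the whole table was called there too. Over all alternatives tried, its limma adjusted p ran from 0.000123 to 0.634. The authors' deposited table gave it a log2 fold change of 2.51 (SE 0.65) with an adjusted p of 0.00281, in a table where 10.4% of miRNAs were below 0.05, 5.13% higher and 5.32% lower at P0.

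miR-148b-3p, the guide arm from the Copz1 intron, was lower at P0 in TPM. It had 3840, 3478 and 2963 TPM at the embryonic stage and 2595, 1359 and 1384 TPM at birth. No P0 library reached the lowest E14.5 library, and the stages were likewise apart for 49.6% of tested miRNAs (46.4% lower and 3.13% higher at P0). The fit gave a log2 difference of −1.01 (SE 0.48, limma adjusted p = 0.109), which was 0.19 above the median of the 670 miRNAs tested but on the other side, at −0.36, of that of all 1034 without the filter. After scaling it was 0.28 (SE 0.39, limma adjusted p = 0.645) and the stages overlapped, so its direction depended on the scaling. Without P0 replicate 1 it was called lower in TPM, at −1.31 (SE 0.26, limma adjusted p = 0.00133), and was 0.15 (limma adjusted p = 0.670) after scaling. That TPM fit called 53.0% of miRNAs lower, with a median log2 fold change of −1.40, so miR-148b-3p changed about as the typical miRNA. Its limma adjusted p ran from 0.00133 to 0.947 over the alternatives. In the authors' deposited table it stood at 0.12 (log2, SE 0.58) with an adjusted p of 0.916.

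miR-152-3p, the guide arm from the Copz2 intron, had its highest value in P0 replicate 1, where miR-148a-3p had its lowest. It had 4483, 4367 and 4793 TPM at E14.5. P0 replicate 1 had 7052 TPM, the highest of all 6 libraries, and P0 replicates 2 and 3 had 1866 and 2139 TPM, the lowest. Across all libraries the log2 difference was −0.58 (SE 0.55, limma adjusted p = 0.399), lying 0.62 above the median of the miRNAs tested and 0.065 above it without the filter. After median-of-ratios scaling the values were 2965, 2972 and 2796 at E14.5 and 8041, 3534 and 3772 at P0, so that every P0 library lay above every E14.5 library. On that scale the stages were apart for 35.4% of tested miRNAs, 15.8% higher and 19.6% lower at P0. The fit then gave 0.71 (log2, SE 0.44, limma adjusted p = 0.282), and the direction depended on the scaling. Without P0 replicate 1 it was called lower in TPM, at −1.19 (SE 0.25, limma adjusted p = 0.00201), and stood at 0.27 (limma adjusted p = 0.356) after scaling. Of all miRNAs, 53.0% were called lower in that TPM fit, and miR-152-3p lay 0.21 above their median of −1.40. Over the alternatives its limma adjusted p ran from 0.00201 to 0.798. In the authors' deposited table its log2 value was 0.61 (SE 0.58) with an adjusted p of 0.493.

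miR-148a-5p, the arm that accompanies miR-148a-3p in the hairpin, was the rarest of the 6 arms in every library. It had 11.0, 8.44 and 9.20 TPM at the embryonic stage and 2.56, 3.78 and 8.10 TPM at birth. These rested on 29, 199 and 47 reads at E14.5 and 89, 84 and 174 reads at P0, so E14.5 replicates 1 and 3 measured it least precisely. The stages did not overlap in TPM, by a margin of 8.44 against 8.10 TPM, as for the 46.4% of tested miRNAs that were lower at P0 without overlap. The log2 difference in TPM was −0.97 (SE 0.58, limma adjusted p = 0.196). On the scaled values the stages overlapped and the direction was the opposite, at 0.15 (SE 0.62, limma adjusted p = 0.888). Without P0 replicate 1 the log2 fold change was −0.67 for TPM values (limma adjusted p = 0.284) and 0.61 for scaled ones (limma adjusted p = 0.325). No alternative called it, with limma adjusted p from 0.155 to 0.998. The authors' deposited table gave 0.57 (SE 0.99) with an adjusted p of 0.726.

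**Figure D1:**
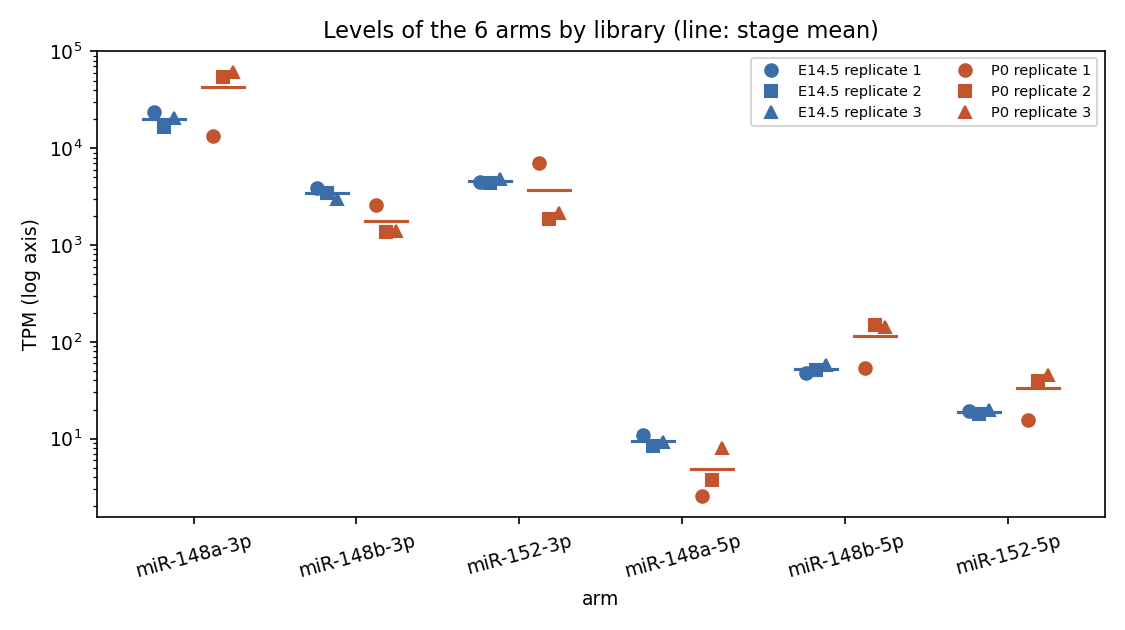
TPM on a log axis for the 3 guide arms and the 3 5p arms, with a point per library, the stage by colour, the replicate by shape and a line at each stage mean. P0 replicate 1 lies below the E14.5 libraries for miR-148a-3p, at 13265 TPM, and above them for miR-152-3p, at 7052 TPM.

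All 4 members passed the filter at a mean of 1 TPM. The TPM fit called none of them, against 34.2% of miRNAs tested, and median-of-ratios scaling called none, against 10.9%. The median log2 fold change of the 4 was −0.77 in TPM, beside −1.20 for the 670 miRNAs tested, and 0.49 after scaling, beside −0.17. The first comparison depended on the filter, since all 1034 miRNAs without it had a median of −0.64, and then 2 of the 4 members lay above it. Within the family, the order of levels was the same in all 6 libraries, with miR-148a-3p first, then miR-152-3p, miR-148b-3p, miR-148b-5p, miR-152-5p and miR-148a-5p. Neighbours in this order were not always apart beyond their spread. miR-152-3p and miR-148b-3p overlapped at P0, where miR-152-3p had 3686 ± 2919 TPM and miR-148b-3p 1779 ± 707 TPM (SD, n = 3).

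**Figure D2:**
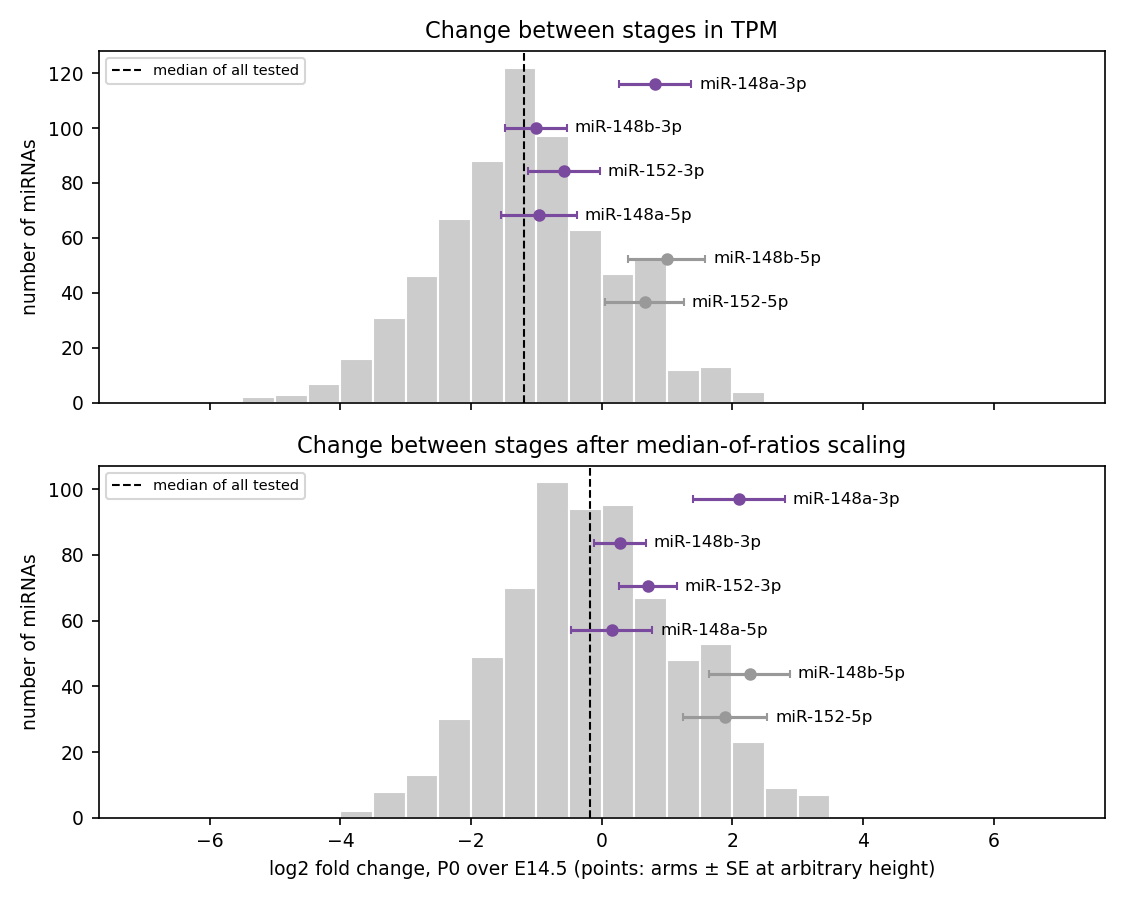
Histogram of the limma log2 fold change (P0 over E14.5) of the 670 tested miRNAs, in TPM above and after median-of-ratios scaling below, with a dashed line at the median and the 6 arms as points ± SE at arbitrary heights (members in purple, other arms in grey). miR-148a-3p, at 0.82 and 2.10, lies to the right of the other members in both panels.

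The guide arms share a seed, so their summed level is the amount of this seed in a library. The sum was 31774, 24396 and 28427 TPM at the embryonic stage and 22912, 57221 and 64811 TPM at birth. P0 replicate 1 was thus the lowest library and P0 replicates 2 and 3 the highest. After median-of-ratios scaling the sum was 21017, 16604 and 16580 at E14.5 and 26124, 108372 and 114294 at P0. The stages did not overlap on that scale, where 15.8% of tested miRNAs were likewise higher at P0 without overlap. miR-148a-3p alone did overlap there, with 15125 in P0 replicate 1 and 15512 in E14.5 replicate 1. miR-148a-3p gave most of the seed in every library. Its share of the family's guide reads was 74.3% (95% Wilson interval 74.0 to 74.6), 68.4% (68.3 to 68.5) and 73.3% (73.1 to 73.5) at E14.5. In P0 replicate 1 it was 58.8% (58.6 to 58.9), and miR-152-3p held 29.7% (29.6 to 29.9) there, more than in any other library. In P0 replicates 2 and 3 the share of miR-148a-3p was 94.5% (94.5 to 94.6) and 94.7% (94.7 to 94.8), with 2.38% and 2.14% for miR-148b-3p and 3.11% and 3.15% for miR-152-3p. The intervals cover counting error only and not the spread between litters.

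**Figure D3:**
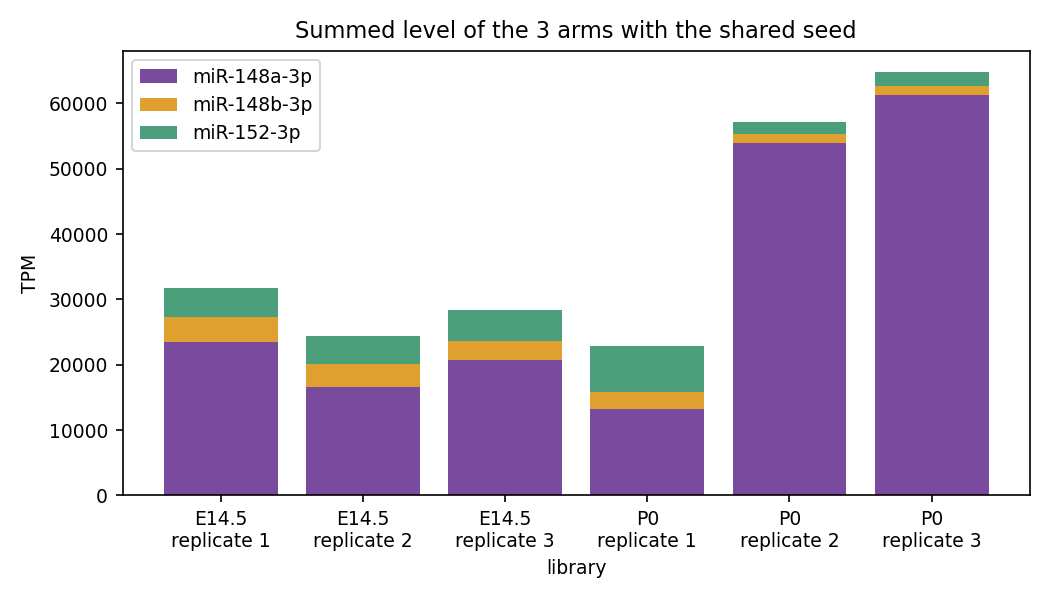
Stacked TPM of miR-148a-3p, miR-148b-3p and miR-152-3p in each library, from 0 on a linear axis. The bars reach 57221 and 64811 TPM in P0 replicates 2 and 3, nearly all of it miR-148a-3p, and between 22912 and 31774 TPM in the other 4 libraries.

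Ratios between arms of a library depend little on how that library is scaled where both arms are abundant, and 6 of them were compared between stages by an exact two-sided permutation test, for which 3 libraries against 3 give no p below 0.1. Plain ratios of TPM are listed, and the tests used the log2 ratio of TPM + 1, which understates ratios to a rare arm. The ratio of miR-148a-3p to miR-148b-3p was 6.11, 4.76 and 6.98 at the embryonic stage and 5.11, 39.7 and 44.3 at birth. P0 replicate 1 lay among the E14.5 libraries. The log2 ratio averaged 2.55 ± 0.28 (SD, n = 3) before birth and 4.38 ± 1.75 (SD, n = 3) at birth, a difference of 1.82 (exact permutation p = 0.3, Benjamini-Hochberg adjusted p = 0.4), or 2.84 without P0 replicate 1. Leaving out each library in turn gave 1.28 to 2.84.

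The ratio of miR-148a-3p to miR-152-3p was 5.23, 3.79 and 4.31 at the embryonic stage and 1.88, 28.9 and 28.7 at birth. P0 replicate 1 lay below and the other P0 libraries above all E14.5 libraries. The difference in mean log2 ratio was 1.40 (exact permutation p = 0.4, adjusted p = 0.4), or 2.71 without P0 replicate 1. It was 0.74 without P0 replicate 2 and likewise 0.74 without P0 replicate 3. The ratio of miR-148b-3p to miR-152-3p was 0.857, 0.797 and 0.618 at E14.5 and 0.368, 0.728 and 0.647 at P0, with a difference in mean log2 ratio of −0.43 (exact permutation p = 0.3, adjusted p = 0.4), or −0.13 without P0 replicate 1. With the GC correction, chosen after seeing the data, it was −0.10.

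The arms were then compared hairpin by hairpin. For the miR-148a hairpin the 3p arm had 2136, 1960 and 2246 times the TPM of the 5p arm at the embryonic stage and 5183, 14283 and 7567 times at birth. All P0 libraries lay above all E14.5 libraries, with a difference in mean log2 ratio of TPM + 1 of 1.78 (exact permutation p = 0.1, the smallest possible, adjusted p = 0.3). It was 1.94 with a pseudocount of 0.1 TPM and 1.98 on whole reads, and leaving out each library in turn gave 1.39 to 2.19. The ratio rests on the 29 to 199 reads of miR-148a-5p.

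For the miR-148b hairpin the ratio went the other way. The 3p arm had 80.5, 67.5 and 51.5 times the TPM of the 5p arm at the embryonic stage and 48.3, 9.09 and 9.63 times at birth. Here too the stages did not overlap, although P0 replicate 1 lay close to E14.5 replicate 3. The difference in mean log2 ratio was −2.0 (exact permutation p = 0.1, adjusted p = 0.3), and leaving out each library in turn gave −2.79 to −1.59.

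For the miR-152 hairpin the 3p arm had 232, 242 and 244 times the TPM of the 5p arm at the embryonic stage, a narrow range, and 448, 47.8 and 46.6 times at birth. P0 replicate 1 lay above and P0 replicates 2 and 3 below the E14.5 libraries. The difference in mean log2 ratio was −1.24 (exact permutation p = 0.4, adjusted p = 0.4), or −2.30 without P0 replicate 1. It was −0.71 without P0 replicate 2 and −0.70 without P0 replicate 3. In P0 replicates 2 and 3, then, 3p was less dominant over 5p in the intronic hairpins than at E14.5, and more dominant in the miR-148a hairpin.

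**Figure D4:**
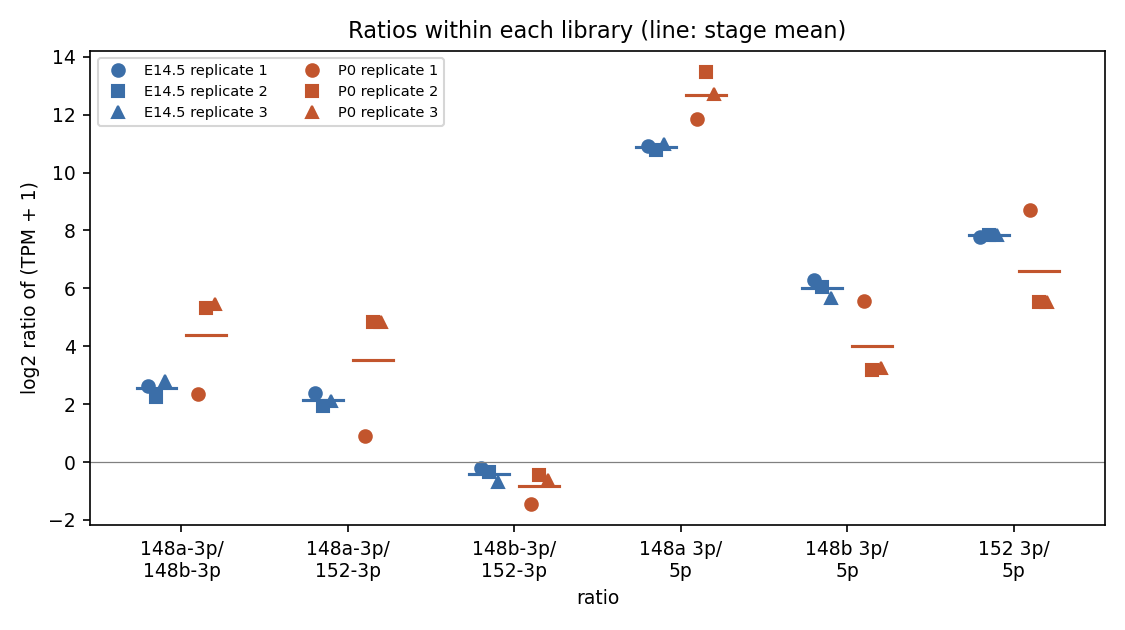
Log2 ratio of (TPM + 1) within each library for 3 pairs of guide arms and for the 3p over the 5p arm of the 3 hairpins, with a point per library and a line at each stage mean. The stages separate for the miR-148a hairpin, at a mean of 10.9 against 12.7, and for the miR-148b hairpin, at 6.00 against 4.00, and overlap in the other 4 ratios, where P0 replicate 1 lies apart from P0 replicates 2 and 3.

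The 5p arms of the intronic hairpins were higher in P0 replicates 2 and 3 than in any other library. miR-148b-5p had 47.7, 51.6 and 57.6 TPM at the embryonic stage and 53.8, 149 and 144 TPM at birth. P0 replicate 1 lay inside the E14.5 range and the other P0 libraries well above it. Its limma log2 fold change was 1.00 in TPM (SE 0.59, limma adjusted p = 0.188) and 2.26 after median-of-ratios scaling (SE 0.62, limma adjusted p = 0.0461), where it was called higher, beside 5.67% of miRNAs called higher. It was called higher on both scales when P0 replicate 1 was left out, at 1.47 for TPM (limma adjusted p = 0.00430) and 2.92 for scaled values (limma adjusted p = 0.000341). Those fits called 7.98% and 21.6% of all miRNAs higher. The scaled call was lost when any of the other 5 libraries was left out (1.93 to 2.31, limma adjusted p = 0.0870 to 0.186), with limma-voom (2.25, adjusted p = 0.0823) and with the replicate block (limma adjusted p = 0.0508). It was kept with upper-quartile scaling (2.40, limma adjusted p = 0.0448) and the GC correction (2.55, limma adjusted p = 0.0332), each of which called 5.67% of miRNAs higher, while the 5 fits that left out a library and lost it called 0% to 0.454% higher. Over its alternatives the limma adjusted p ran from 0.000341 to 0.462, and the authors' deposited table gave 2.46 (SE 0.65) with an adjusted p of 0.00299. miR-152-5p had 19.4, 18.1 and 19.7 TPM at the embryonic stage and 15.8, 39.1 and 45.9 TPM at birth, with P0 replicate 1 below and the other P0 libraries above the E14.5 range. Its limma log2 fold change was 0.66 in TPM (SE 0.60, limma adjusted p = 0.383) and 1.89 after scaling (SE 0.64, limma adjusted p = 0.0777). It was called, higher, only when P0 replicate 1 was left out, at 1.11 for TPM (limma adjusted p = 0.0397) and 2.52 for scaled values (limma adjusted p = 0.00142), beside the same 7.98% and 21.6% of all miRNAs. Its limma adjusted p ran from 0.00142 to 0.710 over the alternatives, and the authors' deposited table gave 2.21 (SE 0.71) with an adjusted p of 0.0195.

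The miRNAs whose levels followed each guide arm most closely were found by Pearson's r of log2(TPM + 1) over the 6 libraries, among the 223 other miRNAs averaging 100 TPM or more. These are descriptions over libraries that share depth and composition, and P0 replicates 2 and 3 weigh heavily in them. miR-148a-3p was most like miR-423-5p (r = 0.980), miR-744-5p (r = 0.965) and miR-196b-5p (r = 0.922). miR-423-5p had 141 to 171 TPM at the embryonic stage and 60.5, 1738 and 1780 TPM at birth, the same pattern at a larger range. miR-148b-3p was most like miR-106b-3p (r = 0.994), miR-20a-5p (r = 0.983) and miR-322-3p (r = 0.983). miR-152-3p was most like miR-136-3p (r = 0.987), miR-26a-5p (r = 0.978) and miR-135a-5p (r = 0.969). Within the family, r was 0.812 between miR-148b-3p and miR-152-3p, −0.840 between miR-148a-3p and miR-148b-3p, and −0.964 between miR-148a-3p and miR-152-3p.

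Other miRNAs reported to repress DNA methyltransferases were set beside the family as a list of 10, which includes the endothelial marker miR-126a-3p and the stromal marker miR-143-3p. In TPM, 0 of the 10 were called higher and 1 lower, beside 1.34% and 32.8% of all miRNAs, and the median log2 fold change was −0.03 beside −1.20 for all miRNAs. After median-of-ratios scaling, 4 were called higher and 0 lower, beside 5.67% and 5.22%, and the median was 1.25 beside −0.17. Those called were miR-29a-3p, miR-101a-3p, miR-140-5p and miR-342-3p. Without P0 replicate 1, 1 was called higher and 4 lower in TPM (7.98% and 53.0% of all miRNAs), and 5 higher and 0 lower after scaling (21.6% and 26.6%). Leaving out any of the other 5 libraries, limma called 0 of the 10 higher after scaling, miR-29a-3p included, beside 0% to 0.454% of all miRNAs. The list's median in those 5 fits was 1.05 to 1.46, near the 1.25 with all libraries. The miR-29 family, which targets Dnmt3a and Dnmt3b, was represented by 3 guide arms. miR-29a-3p had 25, 38.0 and 23.1 TPM at the embryonic stage and 114, 44.6 and 49.5 TPM at birth, with no overlap (3.13% of tested miRNAs in this direction). It differed by 1.15 on the log2 scale in TPM (limma adjusted p = 0.141) and was called higher once scaled, at 2.39 (limma adjusted p = 0.0311). Its highest library was P0 replicate 1, where miR-148a-3p had its lowest value. The other arms of that family were called in neither of these fits, although miR-29c-3p was called higher with the GC correction (limma adjusted p = 0.0254) and miR-29b-3p lower in TPM without P0 replicate 1 (limma adjusted p = 0.0439). miR-29b-3p averaged 44.4 TPM at E14.5 and 25 TPM at P0, with a log2 value of −0.84 in TPM (limma adjusted p = 0.261) and 0.41 once scaled (limma adjusted p = 0.581). miR-29c-3p overlapped between stages and stood at 0.22 in TPM (limma adjusted p = 0.797) and 1.5 once scaled (limma adjusted p = 0.0834). miR-126a-3p, an endothelial miRNA also reported to repress Dnmt1, was the member called lower in TPM, at −1.97 (limma adjusted p = 0.00610), and was −0.69 after scaling (limma adjusted p = 0.283).

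The seed of the guide arms was searched for in the mRNAs of the methyltransferases because the family is known for repressing them. The motif was TGCACTG, the reverse complement of the seed, on the sense strand of the GENCODE transcript with the longest coding sequence of each gene. The 3′ UTR of Dnmt1, the maintenance methyltransferase, is 312 bases long and held 1 match, 23 bases from its start. Its coding sequence held 0, where 37.8% of genes of similar coding length held at least 1. Of 1997 genes whose 3′ UTR was 0.8 to 1.25 times as long, 3.15% held a match, against 11.0% of all 21652 genes. The 3′ UTRs of Dnmt3a and Dnmt3b, the de novo methyltransferases, held 0 matches, where 42.8% and 13.1% of genes with 3′ UTRs of similar length held at least 1. Their coding sequences held 1 match each, near the 3′ end. Among genes of similar coding length, 23.8% for Dnmt3a and 22.6% for Dnmt3b held at least 1 match in the coding sequence. The matches, in capitals with their surroundings, lie at chr9:20907485-20907513 on the minus strand for Dnmt1, chr12:3906852-3906880 on the plus strand for Dnmt3a and chr2:153684446-153684474 on the plus strand for Dnmt3b (GRCm38).
Dnmt1: acccagagccccacgTGCACTGatgtttt
Dnmt3a: gaggacatcctgtggTGCACTGaaatgga
Dnmt3b: gacgacgttttgtggTGCACTGagctcga
These are matches of 7 letters, not measured sites, and no methyltransferase level was measured here.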

How the data were processed

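Small RNA of 6 libraries, 3 per stage, was counted with featureCounts on mm10 and tested with DESeq2 1.26.0 by the authors, per the submitters' processing notes. Libraries were single-end QIAseq miRNA libraries, per the labels' protocols. Trimming, aligner and the use of molecular tags are not given in the sources used here. The authors deposited TPM for every library, summing to 1000000. When multiplied by end minus start, 100% of these deposited TPM values were whole multiples of a step fixed for each library (tolerance 0.01), and these multiples are the reads used here. Per the file headers, the authors also gave a baseMean (a normalised signal), a log2 fold change and its error, a statistic (score), a p-value and its adjusted form. The sign of their fold change follows P0 over E14.5 in the per-sample values.

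Of 52 miRNAs with several rows, the row of the highest total was kept. Stages were compared with limma 3.58.1 (R 4.3.3), using log2(TPM + 1), a variance trend and stage as the only term, for 670 miRNAs that averaged 1 TPM or more. This scale understates changes of low miRNAs. P-values were two-sided, Benjamini-Hochberg adjusted over all miRNAs tested and called below 0.05. Median-of-ratios factors came from 546 miRNAs above 0 in all 6 libraries. The fit was tested on simulated data. A floor of 3 reads equalled 0.0863 to 1.14 TPM by library for a length step of 21 bases. Samples were grouped by the stage and replicate number of their labels. Each was a separate litter pool, so same-numbered libraries were not treated as pairs. The members, the lists and the tests were chosen with earlier results of these data known. Named miRNAs were the 4 members, the other arms of their hairpins, 10 miRNAs reported to repress DNA methyltransferases, 5 of the Hox clusters, 4 with an offset seed and the 3 most like each guide arm. Those described in full from these lists were picked after their values were seen.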

Additional observations from a re-analysis of the deposited data

How the results depend on the processing

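The 6 log2 ratios kept their direction under a pseudocount of 0.1, on whole reads, with a GC correction and without each library, though their size moved, as given with each ratio, and no alternative called miR-148a-5p. Of 670 miRNAs, limma called 229 in TPM, 73 with median-of-ratios scaling, 63 with upper-quartile scaling and 67 with the replicate block and median-of-ratios scaling. Chosen after seeing the data, the GC correction (which also centres each library) called 73 and limma-voom with median-of-ratios factors 28. Under median-of-ratios scaling, upper-quartile scaling, the block with median-of-ratios scaling and the GC correction, in this order, the log2 fold change turned positive for miR-148a-5p (0.15, 0.27, 0.15 and 0.40), miR-148b-3p (0.28, 0.41, 0.28 and 0.58) and miR-152-3p (0.71, 0.84, 0.71 and 0.68). With limma-voom and median-of-ratios factors miR-148b-3p was 0.28 and miR-152-3p 0.72, while miR-148a-5p stayed below 0, at −0.0026. Median-of-ratios scaling moved the median of all miRNAs from −1.20 to −0.17.

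Leaving out each library in turn, limma called 72 (without E14.5 replicate 3) to 420 (without P0 replicate 1) miRNAs in TPM and 0 to 332 after median-of-ratios scaling. The count of 0 arose without E14.5 replicate 1, E14.5 replicate 3 or P0 replicate 2, where limma gave 141, 140 and 150 miRNAs an unadjusted p below 0.05. Without E14.5 replicate 2, 7 were called after scaling, and without P0 replicate 3, 2. In the same fits the log2 fold change ran from 0.42 to 1.52 for miR-148a-3p (1.64 to 2.98 after scaling), from −1.35 to −0.67 for miR-148a-5p (−0.32 to 0.61), from −1.31 to −0.85 for miR-148b-3p (0.08 to 0.37) and from −1.19 to −0.23 for miR-152-3p (0.27 to 0.98). With scaling and without E14.5 replicates 1, 2 and 3 and P0 replicates 1, 2 and 3 in turn, miR-148a-5p stood at 0.24, 0.13, 0.053, 0.61, 0.17 and −0.32, miR-148b-3p at 0.37, 0.35, 0.083, 0.15, 0.36 and 0.36, and miR-152-3p at 0.70, 0.74, 0.65, 0.27, 0.98 and 0.89. Calls of members arose only without P0 replicate 1. Depth limits miR-148a-5p most, at 29 reads in E14.5 replicate 1.

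The deviations of same-numbered libraries correlated at 0.193, 0.183 and 0.0423 for numbers 1, 2 and 3, beside a mean of −0.0712 between other numbers. Of 6 libraries, 5 correlated best with their own number, a hint from the data and not the design. With the replicate block limma called 247 miRNAs in TPM, and no member changed its call. With the block and median-of-ratios scaling, miR-148b-5p had a limma adjusted p of 0.0508, against 0.0461 without the block. The planned count models edgeR and DESeq2 were not run, since the values are TPM, and limma-voom on the recovered reads took their place.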

Other observations

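The miR-130 and miR-301 family carries the same letters as the guide arms' seed, moved by a base. Bases 1 to 7 of miR-130a-3p, miR-130b-3p and miR-301a-3p equalled the seed CAGUGCA, so their own seed was AGUGCAA. In TPM, 0 of the 4 listed members were called higher and 2 lower, beside 1.34% and 32.8% of all miRNAs, and their log2 fold changes ran from −2.18 to −1.34, beside a median of −1.20 for all. Without P0 replicate 1 all 4 were called lower, beside 53.0% of miRNAs, and without E14.5 replicate 2 only 1 was, beside 23.1%. Without any of the other 4 libraries limma called 0, beside 10.7% to 19.6% lower, although the list's median stayed at −1.75 to −1.39. miR-301a-3p had 3028, 1751 and 2652 TPM at the embryonic stage and 1174, 391 and 358 TPM at birth, a difference of −2.14 on the log2 scale (limma adjusted p = 0.0143), or −0.85 once scaled by median of ratios (limma adjusted p = 0.206). With median-of-ratios factors and all libraries none was called and all 4 were below 0 (without P0 replicate 1, 2 were called lower, beside 26.6%), but 2 of the 4 were above 0 with upper-quartile scaling and 1 with the GC correction. No test compared the families.

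The 3 hairpins of the family each lie on a chromosome with a Hox-cluster miRNA of the table. miR-148a-3p was 960 kb from miR-196b-5p on chromosome 6, miR-148b-3p was 270 kb from miR-615-3p on chromosome 15, and miR-152-3p was 533 kb from miR-10a-5p on chromosome 11. miR-196b-5p had 22412, 24447 and 30317 TPM at the embryonic stage and 12766, 47658 and 52200 TPM at birth, so P0 replicate 1 was its lowest library, as for miR-148a-3p. miR-615-3p had 576, 1840 and 1000.2 TPM at the embryonic stage and 2168, 1601 and 1227 TPM at birth, so its order of libraries was not that of miR-148b-3p. miR-10a-5p had 18228, 34282 and 20637 TPM at the embryonic stage and 26546, 8606 and 7899 TPM at birth, with P0 replicates 2 and 3 the lowest, as for miR-152-3p. miR-196a-5p has a row on chromosome 11, 585 kb from miR-152-3p, and another on chromosome 15 for the same mature name. A shared mature name does not tell which position the reads came from, so its values are not specific to either. The row on chromosome 15, 312 kb from miR-148b-3p, was the one of the higher total. It had 22892, 35879 and 37971 TPM at the embryonic stage and 28012, 161118 and 171747 TPM at birth. P0 replicates 2 and 3 were thus its highest libraries, whereas they were the lowest for both miR-148b-3p and miR-152-3p. Shared position was not tested against these patterns.

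The linear trend with mature-sequence GC content was taken on each library's log2 values minus the miRNA's mean over the 6 libraries. This trend is therefore relative to the other libraries and not a trend of the levels themselves. It differed between the P0 libraries. It was −0.38, −0.09 and −0.27 on the log2 scale per 10 percentage points of GC in E14.5 replicates 1, 2 and 3, −0.18 in P0 replicate 1, and 0.45 and 0.47 in P0 replicates 2 and 3. miR-148a-3p and miR-148b-3p have the same GC content, 40.9%, so the GC correction leaves their ratio as it is.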
